A study of Mus musculus with 7 samples.

Results

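The ZFP36 and Regnase mRNA-decay factors are 6 genes of RNA-binding proteins that shorten the life of messenger RNAs: Zfp36, Zfp36l1, Zfp36l2, Zc3h12a, Rc3h1 and Rc3h2. They were taken by symbol from a count table of 55487 genes, in which each symbol had 1 row, and all 6 passed the filter on low counts that 16203 genes passed. The set was selected on its levels in these same libraries, since an earlier look had Zfp36l1 higher in each Traf6 KO library. The difference between genotypes is therefore given here as a description of each member, with no test.

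Tristetraprolin, the product of Zfp36, and its relatives encoded by Zfp36l1 and Zfp36l2 bind AU-rich elements in 3′ untranslated regions through tandem zinc fingers and bring in the CCR4-NOT complex, which removes the poly(A) tail. Regnase-1, the product of Zc3h12a, is an endonuclease that cuts stem-loops in transcripts of inflammation, and Roquin-1 and Roquin-2, the products of Rc3h1 and Rc3h2, bind related stem-loops and also bring in the deadenylase. Toll-like and interleukin-1 receptors signal through TRAF6, an E3 ubiquitin ligase, to kinases that phosphorylate tristetraprolin and Regnase-1, and Zfp36 is itself an early response gene in many cell types. In beta cells Zfp36l1 is known as one of the disallowed genes, which are kept low there relative to most other tissues.

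RNA-seq libraries were made from islets of 3 Traf6 KO mice and 4 control mice, all on a 60% high-fat diet for 15 weeks, and all islets had 24 hours of recovery in culture medium after isolation. The series' design places the knockout in beta cells, so the other islet cells keep the gene. The Cre driver, the alleles and any Cre in the controls are not named in the sources used here, nor are age, sex and litter. In such bulk samples, fewer cells of a type and less RNA per cell cannot be told apart.

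Library totals ran from 22104256 to 29917292 counts. Traf6 had 14.7, 15.3 and 14.5 CPM in Traf6 KO 1 to 3, against 17.9, 25.5, 22.1 and 12.6 CPM in control 1 to 4, where CPM is the read count scaled to library size with TMM factors. By edgeR its log2 fold change was -0.40 ± 0.22 (SE) with an adjusted p of 0.416. Of all 7 libraries, the lowest level was in the library labelled control 4, which goes against that label. The ratio of Ins1 to Ins2 counts was 0.17, 0.175 and 0.166 in Traf6 KO 1 to 3, against 0.357, 0.358, 0.336 and 0.175 in control 1 to 4, so that library was like the Traf6 KO libraries in this ratio too, and the Zfp36l1 and Zfp36 differences are therefore also given without it. The sources used here do not say which exons the knockout removes or how counts were summed over exons. Acinar marker genes took 56.7%, 43.3% and 1.65% of counts in Traf6 KO 1 to 3, against 20.4%, 0.493%, 0.469% and 3.26% in control 1 to 4. Animal tags begin with S in Traf6 KO 3 and the library labelled control 4 and with Q or R in the others. Traf6 KO 1, Traf6 KO 2 and control 1, the acinar-rich libraries, carry consecutive Q tags. Traf6 KO 3 alone had 0 counts of Y-linked genes and a high Xist level of 421 CPM. Beta-cell markers were abundant in all libraries, at a summed 92055 to 117643 CPM in Traf6 KO and 158258 to 192254 CPM in control libraries.

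Zfp36l1 was the member whose genotypes did not overlap. Zfp36l1 (ENSMUSG00000021127, chr12:80107754-80113013 on GRCm38, minus strand) had 28.6, 17.4 and 31.4 CPM in Traf6 KO 1 to 3, against 7.95, 6.72, 10.3 and 9.78 CPM in control 1 to 4. No control reached the level of any Traf6 KO library, and the lowest Traf6 KO value was 1.69 times the highest control value. The means were 25.8 ± 7.37 CPM in Traf6 KO (SD, n = 3) and 8.69 ± 1.66 CPM in control libraries (SD, n = 4), a fold of 2.97 and a log2 fold change of 1.57 ± 0.23 (SE). Without the library labelled control 4 the log2 fold change was 1.63. All Traf6 KO libraries lay above all controls in 904 of 16203 tested genes (5.58%) and below them in 1406 (8.68%), and among the 6 members in 1 and 0. Since this contrast chose the members, nothing is read from that count.

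**Figure D1:**
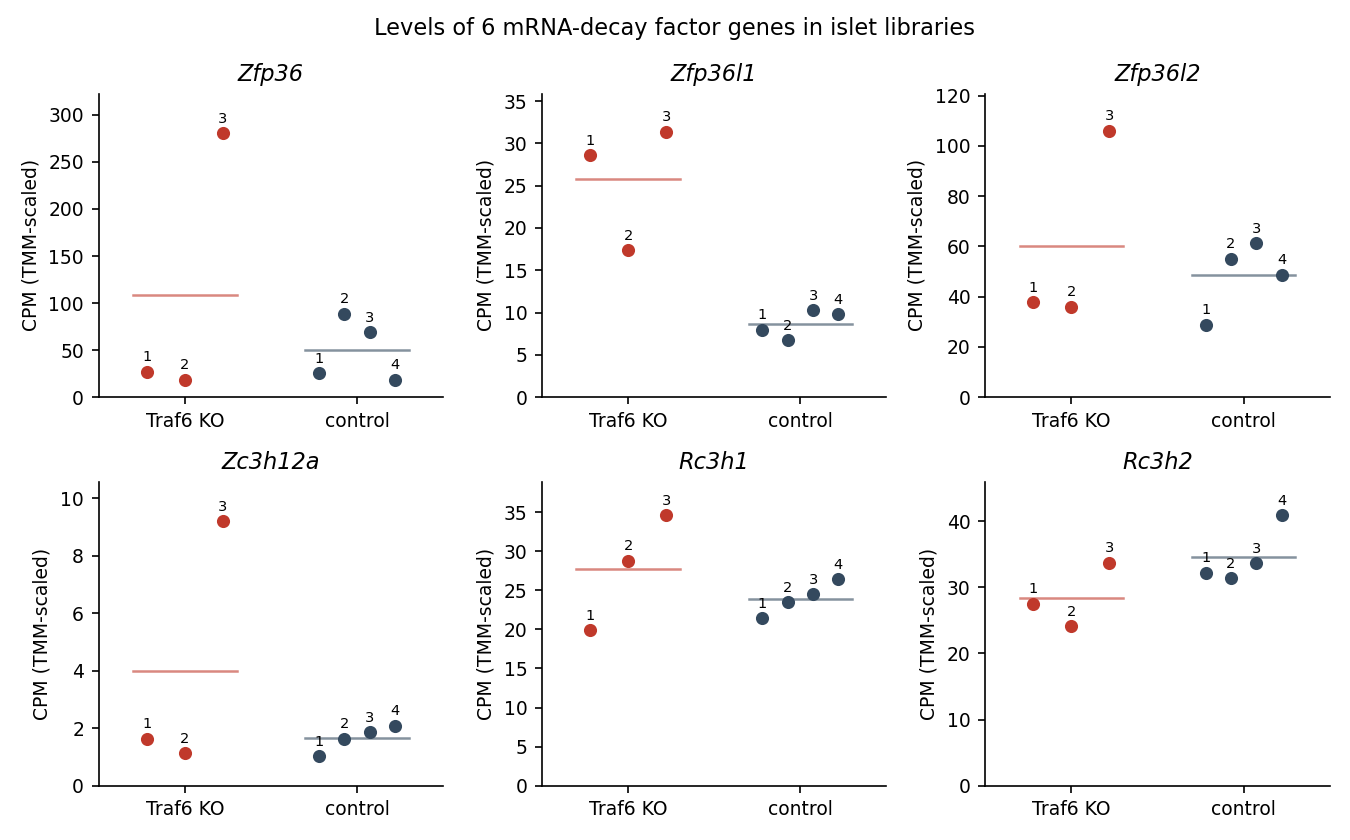
Level of each decay factor in CPM (y axis, linear, from 0) in every library, with Traf6 KO left of control; points are libraries and short lines are group means. Zfp36l1 shows all Traf6 KO libraries above all controls (17.4 CPM at the lowest against 10.3 CPM at the highest), whereas the high Zfp36, Zfp36l2 and Zc3h12a values belong to Traf6 KO 3.

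The size of the Zfp36l1 difference depended on how libraries were scaled. TMM factors were 0.5, 0.74 and 1.351 in Traf6 KO 1 to 3, against 0.954, 1.305, 1.256 and 1.278 in control 1 to 4, and the low factors belong to the libraries richest in acinar transcripts. On plain library totals Zfp36l1 had 14.3, 12.9 and 42.4 CPM in Traf6 KO 1 to 3, against 7.59, 8.76, 13.0 and 12.5 CPM in control 1 to 4. Traf6 KO 2 then fell within the range of the controls, and the log2 fold change was 1.15, while the median of all tested genes moved to -0.46. On totals that leave out the acinar marker genes the values were 33.0, 22.8 and 43.1 CPM in Traf6 KO 1 to 3, against 9.53, 8.81, 13.0 and 12.9 CPM in control 1 to 4, with the groups again apart. Fitting the acinar level as a covariate gave 1.70 on the log2 scale, and the Q- and R-tagged libraries by themselves gave 1.46 ± 0.26 (SE). Within the S-tagged pair, 1 library of each genotype, Zfp36l1 was 3.21 times as high in Traf6 KO 3 as in the library labelled control 4.

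A ratio of counts within a library needs no scaling. Zfp36l1 had 0.754, 0.485 and 0.297 counts per count of Zfp36l2 in Traf6 KO 1 to 3, against 0.275, 0.122, 0.168 and 0.201 in control 1 to 4. All Traf6 KO ratios lay above all control ratios, the lowest by a small margin (0.297 against 0.275). The ratio uses the Zfp36l1 counts that chose the set, so it is a description and nothing is read from the separation. Against Zfp36 the genotypes overlapped, with 0.949, 1.06 and 8.93 counts of Zfp36 per count of Zfp36l1 in Traf6 KO 1 to 3, against 3.21, 13.2, 6.67 and 1.91 in control 1 to 4. Such a ratio shows an unequal change of the pair and not which gene differed.

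Markers of other cell types of the pancreas were read beside Zfp36l1, a gene that many cell types express. Stellate and fibroblast markers summed to 207 to 447 CPM in Traf6 KO and 194 to 296 CPM in control libraries, with 12 of 14 genes above 0 in log2 fold change and none at 0 in all libraries. Ductal markers summed to 1356 to 2319 CPM in Traf6 KO and 951 to 1255 CPM in control libraries, but Clu, a secreted chaperone, carried that gap. Without Clu, left out after its values were seen, they summed to 891 to 1191 CPM in Traf6 KO and 809.9 to 991 CPM in control libraries, and the ranges overlapped. Of 13 tested ductal genes 8 had a log2 fold change above 0. None had all Traf6 KO libraries above all controls, against 5.58% of all genes tested. All Traf6 KO libraries lay below all controls in 3 (23.1%), Epcam, Tspan8 and Krt7, against 8.68% of all genes tested. Cftr, a chloride channel of duct cells, was at 0 in at least 1 library. Endothelial markers summed to 401 to 464 CPM in Traf6 KO and 462 to 566 CPM in control libraries, and macrophage and myeloid markers to 157 to 274 CPM in Traf6 KO and 188 to 554 CPM in control libraries. Lymphocyte markers summed to 35.4 to 456 CPM in Traf6 KO and 13.1 to 80.1 CPM in control libraries. The highest sum was in Traf6 KO 3, and Ighm, an antibody gene, made up most of it. Ighm had 28.3, 12.3 and 401 CPM in Traf6 KO 1 to 3, against 2.80, 3.23, 23.6 and 24.7 CPM in control 1 to 4. Of 17 tested beta-cell markers 16 had a log2 fold change below 0. In 6 of them (35.3%) all Traf6 KO libraries lay below all controls, against 8.68% of all genes tested, and in 0 above. All 32 acinar markers had a log2 fold change above 0, against 50.7% of all genes tested, but the groups overlapped for each. The part of any of these cells in the Zfp36l1 difference was not tested.

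Zfp36 differed mostly between libraries rather than genotypes. Zfp36 (ENSMUSG00000044786, chr7:28376784-28380253 on GRCm38, minus strand) had 27.1, 18.5 and 280.3 CPM in Traf6 KO 1 to 3, against 25.5, 88.5, 68.8 and 18.7 CPM in control 1 to 4. The groups overlapped, Traf6 KO 3 was 3.17 times the next highest library, and the highest level was 15.1 times the lowest. The means were 109 ± 149 CPM in Traf6 KO (SD, n = 3) and 50.4 ± 33.8 CPM in control libraries (SD, n = 4), with a log2 fold change of 1.11 ± 0.95 (SE). It was -1.15 without Traf6 KO 3 and -1.43 ± 0.52 (SE) in the Q- and R-tagged libraries. The direction of the Zfp36 difference was therefore set by 1 library. Without the library labelled control 4 the value was 0.84.

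The promoter of Zfp36 is shown because this early response gene differed most between libraries. It is taken from RefSeq (GRCm38.p6, chr7:28379179-28379478, minus strand, 250 bases before to 50 after the start), written 5′ to 3′. Capitals mark an EGR motif, GCGGGGGCG, and a CArG box, CCATAAAAGG, the site of serum response factor, with first bases 105 and 58 bases before the start. GENCODE M21 places exon sequence of Zfp36 further upstream than this RefSeq start.
Zfp36 promoter: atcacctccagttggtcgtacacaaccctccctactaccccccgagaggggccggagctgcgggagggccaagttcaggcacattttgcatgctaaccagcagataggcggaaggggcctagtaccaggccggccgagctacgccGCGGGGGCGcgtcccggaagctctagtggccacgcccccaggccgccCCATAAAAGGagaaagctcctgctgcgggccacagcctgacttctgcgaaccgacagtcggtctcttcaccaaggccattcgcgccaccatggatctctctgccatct
These motifs and a motif of the AP-1 factor, TGACTCA, were searched on both strands in all 32851 promoters of the table. A CArG box was in 535 of them (1.63%), the EGR motif GCGGGGGCG in 955 (2.91%) and the AP-1 motif in 1709 (5.2%). The Zfp36l1 promoter held none of them in its window. Among the other members, Rc3h1 held the AP-1 motif, 133 bases before the start, and Zc3h12a and Rc3h2 held none. Zfp36l2 had no promoter entry. Of 20 immediate-early genes with a promoter entry, a CArG box was found in 2, Dusp5 and Egr2, and the EGR motif in 4, Fosb, Klf2, Klf4 and Nr4a1. The AP-1 motif was found in 1, Csrnp1. Counted by promoter, as over the whole table, these were 5 (17.2%), 4 (13.8%) and 1 (3.4%) of 29. A match is a run of letters and says nothing of binding in these islets.

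Zfp36l2 stood between these patterns. Zfp36l2 (ENSMUSG00000045817, chr17:84183931-84187947 on GRCm38, minus strand) had 37.9, 36.0 and 106 CPM in Traf6 KO 1 to 3, against 28.9, 55.1, 61.3 and 48.7 CPM in control 1 to 4. The groups overlapped, and the log2 fold change was 0.31 ± 0.41 (SE), or -0.39 without Traf6 KO 3. Traf6 KO 3 was again the highest library, at 1.72 times the next.

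The make-up of the ZFP36 family followed from these levels. Per kb of exon, Zfp36l1 took 34.0%, 27.3% and 8.66% of the summed family level in Traf6 KO 1 to 3, against 14.6%, 5.18%, 8.49% and 14.6% in control 1 to 4. Zfp36 took 27.8%, 25.0% and 66.7% in Traf6 KO 1 to 3, against 40.4%, 58.8%, 48.8% and 24.0% in control 1 to 4. Traf6 KO 1 and 2 were thus the libraries with the largest Zfp36l1 share, and Traf6 KO 3 that with the largest Zfp36 share. The Zfp36l1 share of the 2 genotypes overlapped, although its level did not.

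**Figure D2:**
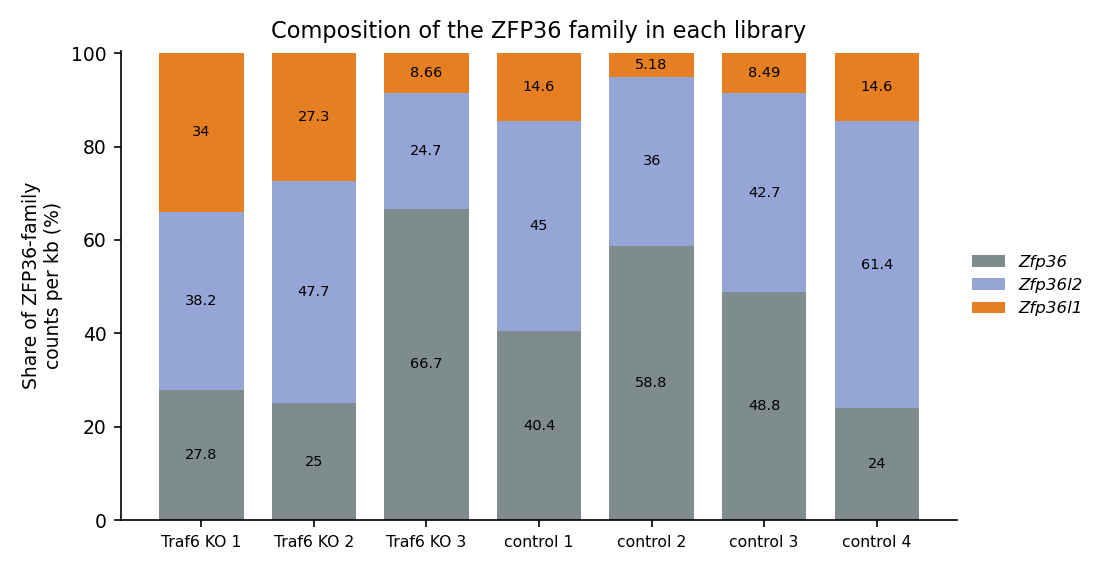
Share of the summed ZFP36-family level, in percent per kb of exon, taken by each of the 3 genes in each library, with Traf6 KO libraries first and controls after them. Zfp36l1 reaches 34.0% and 27.3% in Traf6 KO 1 and 2, and Zfp36 reaches 66.7% in Traf6 KO 3.

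Zc3h12a had few counts. Zc3h12a (ENSMUSG00000042677, chr4:125118423-125127840 on GRCm38, minus strand) had 18, 21 and 284 counts in Traf6 KO 1 to 3, against 29, 59, 64 and 59 in control 1 to 4. The exact Poisson 95% intervals were 10.7 to 28.4 and 13.0 to 32.1 counts in Traf6 KO 1 and 2, and cover counting error only. In CPM it had 1.63, 1.13 and 9.2 in Traf6 KO 1 to 3, against 1.02, 1.64, 1.87 and 2.08 in control 1 to 4. Traf6 KO 3 was 4.42 times the next highest library and the others overlapped. The log2 fold change was 1.29 ± 0.69 (SE), and -0.28 without Traf6 KO 3.

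The Roquin genes varied least. Rc3h1 (ENSMUSG00000040423, chr1:160906418-160974978 on GRCm38, plus strand) had 19.9, 28.8 and 34.6 CPM in Traf6 KO 1 to 3, against 21.4, 23.5, 24.5 and 26.4 CPM in control 1 to 4, with a log2 fold change of 0.22 ± 0.18 (SE). Rc3h2 (ENSMUSG00000075376, chr2:37370069-37422903 on GRCm38, minus strand) had 27.5, 24.1 and 33.7 CPM in Traf6 KO 1 to 3, against 32.2, 31.4, 33.6 and 40.9 CPM in control 1 to 4, with a log2 fold change of -0.28 ± 0.15 (SE). The groups overlapped for both. Without the library labelled control 4 the values were 0.27 for Rc3h1 and -0.18 for Rc3h2. On plain library totals the values were -0.15 and -0.69.

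**Figure D3:**
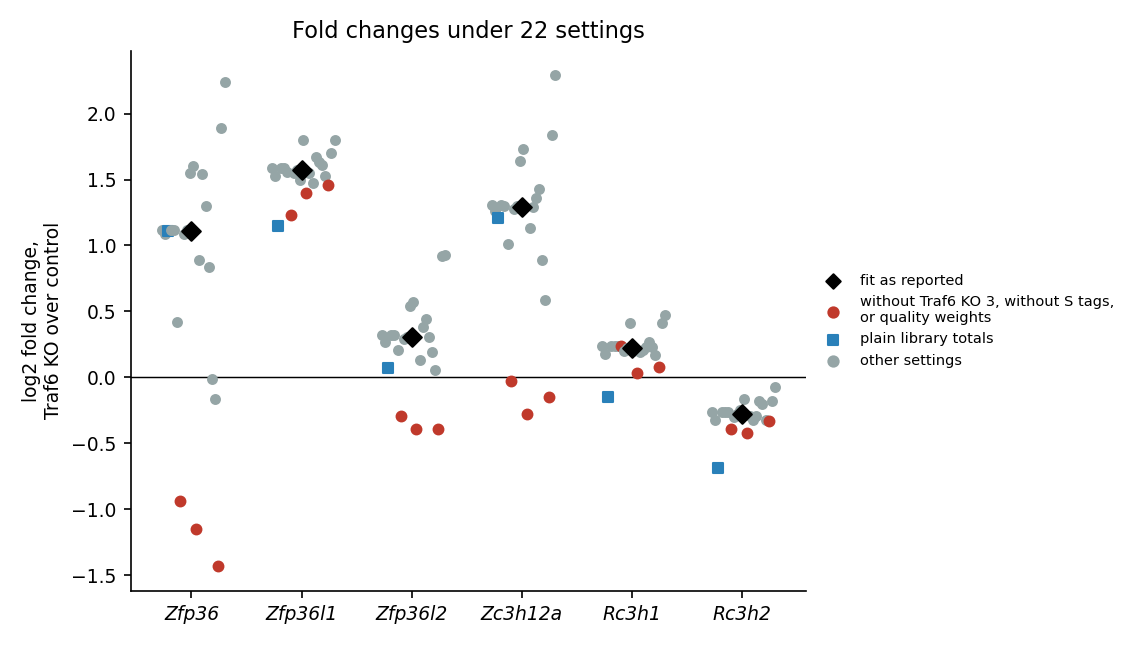
Log2 fold change, Traf6 KO over control (y axis), of each decay factor (x axis) under 22 settings of the fit; the black diamond is the fit as reported, blue squares are plain library totals, and red points are fits without Traf6 KO 3, without S-tagged libraries or with quality weights. Zfp36l1 runs from 1.15 to 1.80, but it chose the set by being higher in each Traf6 KO library, so nothing is read from its sign. Zfp36, Zfp36l2 and Zc3h12a change sign without Traf6 KO 3.

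The order of levels between members was not used to choose them, except that the Zfp36l1 level in Traf6 KO libraries was, so both of its pairs are given with no test. Per kb of summed exons, the median CPM over the 7 libraries was 13.8 for Zfp36l2, 7.82 for Zfp36, 3.45 for Zfp36l1, 2.17 for Rc3h1, 1.64 for Rc3h2 and 0.571 for Zc3h12a. Neighbours were compared within libraries, and the other pairs by an exact two-sided sign-flip permutation test, whose smallest p is 0.0156, with adjustment over all 5 neighbouring pairs. Zfp36l1 exceeded Rc3h1 in 7 of 7 libraries, by a mean of 1.03 ± 0.83 on the log2 scale (SD), but by 0.44 in the control libraries alone. Zfp36 exceeded Zfp36l1 in 5 of 7 libraries, by a mean of 1.53 ± 1.51 (SD). Rc3h1 exceeded Rc3h2 in 7 of 7 libraries, by 0.47 ± 0.34 (SD, exact p = 0.0156, exact adjusted p = 0.0391). In the control libraries alone it was 0.27, where 4 libraries are too few to pass. Zfp36l2 and Zfp36 were not told apart (0.08 ± 0.96, SD, n = 7, exact adjusted p = 0.844). Rc3h2 exceeded Zc3h12a by 1.24 ± 0.99 (SD, n = 7, exact p = 0.0312, exact adjusted p = 0.0521). The adjusted values depend on counting both Zfp36l1 pairs, which the selection touched. Whether Rc3h2 over Zc3h12a passes rests on that adjustment, so no order is read for this pair. With the longest transcript as the length, Rc3h1 lay below Rc3h2 (-0.62, exact adjusted p = 0.0195), so the order of the Roquin genes rests on the length used.

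Zfp36 differed among libraries alongside immediate-early genes, the transcription factors and regulators switched on within minutes of a stimulus. The mean log2(CPM + 1) of 25 such genes was 4.65, 4.41 and 7.87 in Traf6 KO 1 to 3, against 4.70, 5.97, 6.04 and 4.64 in control 1 to 4. The libraries thus lay at 3 levels, with Traf6 KO 3 highest, controls 2 and 3 between, and the others low, and no pooled correlation is given. Zfp36 kept the same 3 levels, whereas Zfp36l1 was high in Traf6 KO 1 and 2, where these genes were low. Of the 25 genes 22 (88.0%) were highest in Traf6 KO 3, against 3400 of all 16203 genes tested. Their median log2 fold change was 0.99 with 23 above 0, and -0.86 without Traf6 KO 3. Atf3, a stress-induced transcription factor, had 13.8, 2.48 and 450 CPM in Traf6 KO 1 to 3, against 2.77, 30.0, 23.5 and 0.741 CPM in control 1 to 4. Fos, part of the AP-1 factor, had 106, 95.3 and 2655 CPM in Traf6 KO 1 to 3, against 193, 868, 748 and 109 CPM in control 1 to 4. In Traf6 KO 3 these levels go with an S tag and an absence of Y-linked counts, and the part of either was not tested. Among the low libraries, Traf6 KO 1 and 2 and control 1 carry consecutive Q tags, and the part of that was not tested either.

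**Figure D4:**
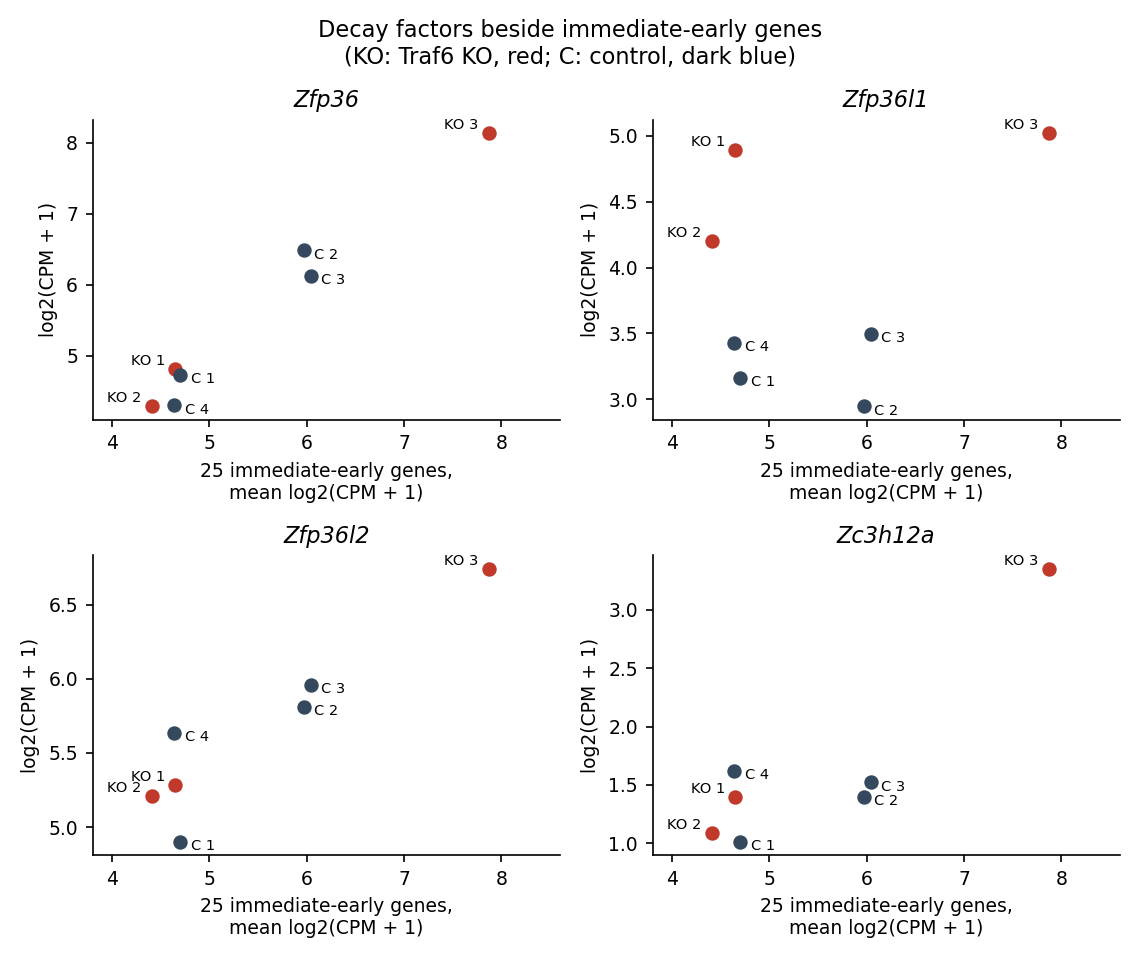
Level of 4 decay factors (y axis, log2(CPM + 1)) against the mean level of 25 immediate-early genes (x axis, log2(CPM + 1)), 1 point per library. Zfp36 lies high where the immediate-early mean is high, 7.87 in Traf6 KO 3, while Zfp36l1 is high in all Traf6 KO libraries, also at means of 4.65 and 4.41.

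The genes with the library pattern most like each member were found by Pearson r of log2(CPM + 1) over the 7 libraries, as a description. For Zfp36l1 these were Aoc3 (r = 0.991), Mbtd1, Senp2, Tgif1, Calu, Tob1, Mctp1 and Sh3bp5 (r = 0.969). Tgif1, a repressor of TGF-beta signalling, had 5.52, 3.45 and 6.83 CPM in Traf6 KO 1 to 3, against 1.54, 1.62, 2.25 and 1.66 CPM in control 1 to 4. Those most like Zfp36 were Btg2 (r = 0.991), Dzip3 and Klf6, and those most like Zc3h12a were Adcy3 (r = 0.994), Pmaip1 and Egr3. For Zfp36l2 they were Tspan18, Gem and Nfil3, for Rc3h1 Sbno1, Ghsr and Chsy1, and for Rc3h2 Matk, Sh3gl1 and Dcaf15. Traf6 KO 3 was the highest library for all 3 genes named for each of Zfp36, Zfp36l2, Zc3h12a and Rc3h1, and for 6 of the 8 named for Zfp36l1. How far the r values rest on it was not tested.

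The 3′ untranslated regions of the decay factors hold the motif that the ZFP36 family binds. TATTTAT was found 3 times each in Zfp36, Zfp36l1 and Zfp36l2, 2 times in Rc3h1, 3 times in Rc3h2 and in no place in Zc3h12a. The 5 sites that lie within the longer TTATTTATT are shown with their flanks, as GRCm38 gives them on the strand of the gene (GENCODE M21 transcripts), with the heptamer in capitals. They lie at chr7:28376952-28376978 (minus) in Zfp36, chr12:80108168-80108194 (minus) in Zfp36l1, chr17:84184915-84184941 (minus) in Zfp36l2, chr1:160970044-160970070 (plus) in Rc3h1 and chr2:37373288-37373314 (minus) in Rc3h2.
Zfp36: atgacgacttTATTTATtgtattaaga
Zfp36l1: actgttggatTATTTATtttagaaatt
Zfp36l2: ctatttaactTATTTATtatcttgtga
Rc3h1: ctttactcatTATTTATtgagatgagg
Rc3h2: aaagacatttTATTTATtttactctgt
Over 13912 genes, the median log2 fold change was -0.02 with no TATTTAT (9709 genes), 0.08 with 1, 0.15 with 2 and 0.17 with 3 or more (566 genes). The median length of the untranslated region was 865 bases with none and 3342 bases with 3 or more. ATTATTT, a heptamer of the same letters, gave -0.02, 0.11, 0.14 and 0.19 over the same steps. The heptamers can overlap, and 1900 of 3447 genes with ATTATTT (55.1%) also held TATTTAT. In a comparison added after seeing the data, genes with TATTTAT but no ATTATTT had a median of 0.07 (2303 genes), genes with ATTATTT but no TATTTAT 0.09 (1547 genes), and genes with neither -0.04 (8162 genes). The difference between 3 or more TATTTAT and none was 0.19, and it was 0.09 without Traf6 KO 3, 0.30 without Traf6 KO 1 and 0.34 without the 3 acinar-rich libraries. For the longer TTATTTATT it was 0.05. Among the longest untranslated regions, from 1857 bases, the median was 0.15 with TATTTAT and 0.08 without it, and for ATTATTT 0.16 with it and 0.08 without it.

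No gene of the decay machinery passed the edgeR test, and neither did any of the 16203 genes (0.0%); 2589 (16.0%) had an unadjusted p under 0.05, and the DESeq2 Wald test called 744 (4.59%) and limma-voom with quality weights 1046 (6.46%), against 0 by limma-voom without weights. Of 19 tested deadenylation genes 10 had a log2 fold change above 0, with a median of 0.03, against 50.7% above 0 and a median of 0.01 over all genes tested. Tob1, an adaptor between RNA-binding proteins and CCR4-NOT, had 212, 158 and 239.8 CPM in Traf6 KO 1 to 3, against 88.9, 107, 125 and 121 CPM in control 1 to 4 (log2 fold change 0.88 ± 0.18, adjusted p = 0.176 by edgeR). Cnot2, a CCR4-NOT scaffold subunit, lay at 0.25 ± 0.09 (SE, edgeR adjusted p = 0.243). Of 30 decapping and exonuclease genes 12 lay above 0, with a median of -0.13. Lsm6, of the ring that binds deadenylated ends, had 37.5, 33.3 and 37.3 CPM in Traf6 KO 1 to 3, against 49.7, 47.7, 46.8 and 46.1 CPM in control 1 to 4 (edgeR adjusted p = 0.183). All Traf6 KO values lay below all control values for Lsm6 and for Lsm7, its partner in the ring. Of the 30 genes 4 (13.3%) lay wholly below and 0 wholly above, against 8.68% and 5.58% of all genes tested. Ttc37 and Xrn1 went the other way, at 0.36 ± 0.14 and 0.41 ± 0.20 (SE, edgeR adjusted p = 0.282 and 0.356), with overlapping groups.

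Other binders of AU-rich elements lay near the background, with 12 of 18 above 0 and a median of 0.07. Pum2, which binds Pumilio elements, lay at 0.35 ± 0.14 on the log2 scale (edgeR, adjusted p = 0.286), and Elavl4, a neuronal stabilising protein, -0.45 ± 0.19 (edgeR, adjusted p = 0.303). Kinases, phosphatases and 14-3-3 proteins that act on tristetraprolin had 15 of 22 genes above 0 and a median of 0.09. Of these 1 (4.55%) lay wholly above the controls and 2 (9.09%) wholly below, against 5.58% and 8.68% of all genes tested. Rps6ka3, a kinase, lay wholly above (0.38 ± 0.12, SE, edgeR adjusted p = 0.231). Ywhab, a 14-3-3 protein, lay wholly below (-0.28 ± 0.09, SE, edgeR adjusted p = 0.22). Mapkapk2, the kinase MK2, had 41.4, 45.9 and 40.8 CPM in Traf6 KO 1 to 3, against 44.4, 37.2, 36.8 and 43.7 CPM in control 1 to 4 and was named after its values were seen. Relatives and partners of Regnase-1 had 9 of 12 genes above 0 and a median of 0.15. Zc3h12c, a Regnase relative, had 11.0, 12.8 and 50.0 CPM in Traf6 KO 1 to 3, against 7.91, 11.8, 12.2 and 13.8 CPM in control 1 to 4, with Traf6 KO 3 apart from the rest.

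Known target transcripts also followed Traf6 KO 3. Of 26 tested ZFP36-family targets, 21 had a log2 fold change above 0 and 21 (80.8%) were highest in Traf6 KO 3, against the same 3400 of 16203, and their median was 0.71, or -0.62 without that library. Bcl2, an inhibitor of apoptosis, had 11.2, 8.40 and 7.48 CPM in Traf6 KO 1 to 3, against 4.87, 4.10, 5.97 and 4.34 CPM in control 1 to 4 (log2 fold change 0.90 ± 0.21, SE, edgeR adjusted p = 0.189), so its groups did not overlap. Hif1a, the hypoxia factor, lay at 0.40 ± 0.12 and Ccnd1, cyclin D1, at -0.27 ± 0.11 (SE, edgeR adjusted p = 0.217 and 0.291). Their groups did not overlap either. Of the 26 genes 2 (7.69%) lay wholly above the controls and 1 (3.85%) wholly below, against 5.58% and 8.68% of all genes tested. Of 12 tested targets of Regnase-1 and Roquin, 11 lay above 0 with a median of 0.91, and 10 (83.3%) were highest in Traf6 KO 3, and without it the median was -0.78. Nfkbiz, a regulator of NF-kB targets, had 26.8, 32.0 and 181 CPM in Traf6 KO 1 to 3, against 25.9, 40.4, 41.5 and 33.7 CPM in control 1 to 4. Some genes, such as Fos and Dusp1, stand in both a target list and the immediate-early list. Cxcl1, Cxcl2, Tnf, Il1b and Nfkbiz stand in both target lists, so the lists are not separate observations. Some of these are near the floor outside Traf6 KO 3. Tnf had 0, 0.108 and 5.47 CPM in Traf6 KO 1 to 3, against 0.28, 1.09, 0.673 and 0.0353 CPM in control 1 to 4. Cxcl1 and Cxcl2 were likewise low outside Traf6 KO 3.

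**Figure D5:**
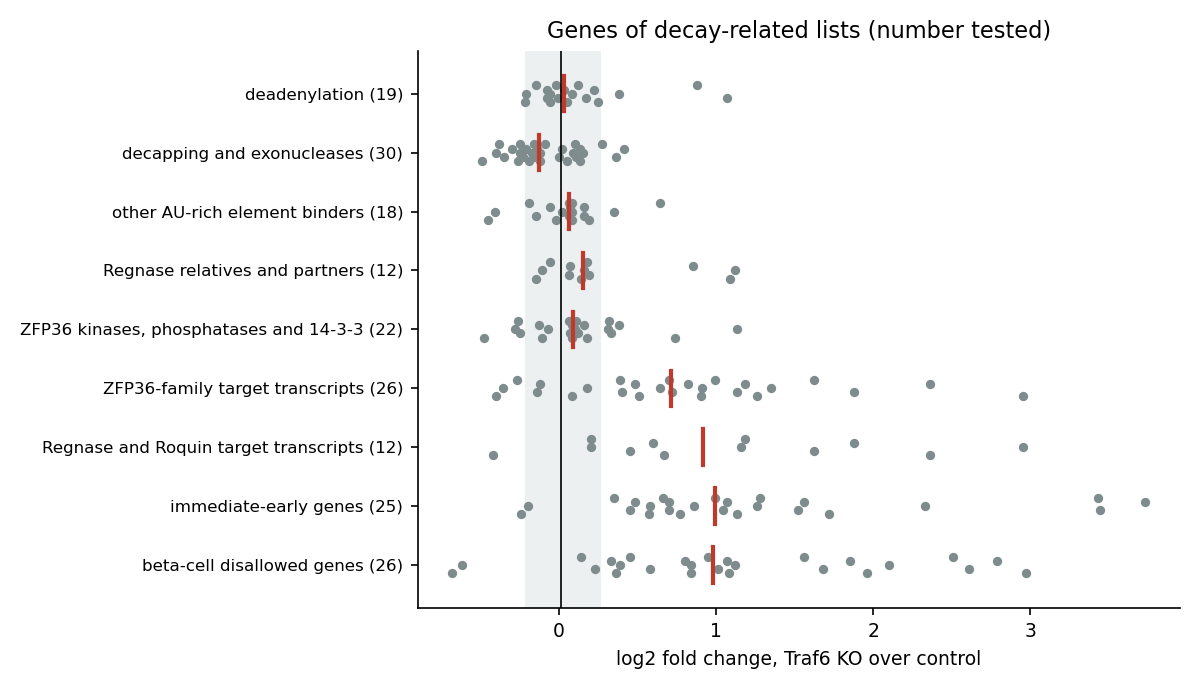
Log2 fold change, Traf6 KO over control, of the tested genes of the 9 lists other than cell-type markers, along the x axis (1 point per gene); red bars are list medians, the black line is the median of all genes tested and the shaded band their quartiles. Medians of these 9 lists run from -0.13 for decapping and exonucleases to 0.99 for immediate-early genes, and 0.01 is the median of all genes tested.

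Zfp36l1 stands among the beta-cell disallowed genes, and the other 26 of that list were read beside it. Of these, 24 had a log2 fold change above 0 and 8 (30.8%) had all Traf6 KO libraries above all controls, against 5.58% of all genes tested, with a median of 0.98. The list was drawn up with results of these libraries known, and it shares Pdgfra, one of the 8, with the stellate and fibroblast list and Sox9 with the ductal list. Hk2, a hexokinase, had 7.33, 5.22 and 2.23 CPM in Traf6 KO 1 to 3, against 0.910, 0.780, 0.468 and 1.27 CPM in control 1 to 4 (log2 fold change 2.51 ± 0.48, SE, edgeR adjusted p = 0.176). Smad3, which relays TGF-beta signals, had 15.7, 10.6 and 5.89 CPM in Traf6 KO 1 to 3, against 4.41, 3.12, 3.04 and 2.72 CPM in control 1 to 4 (edgeR adjusted p = 0.176). Unlike Zfp36l1, both were highest in the acinar-rich Traf6 KO 1, and the list median was 0.46 without the 3 acinar-rich libraries and 0.50 once the acinar level was a term of the fit.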

How the data were processed

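Gene counts came from 1 table with 7 libraries of mouse islets, 3 Traf6 KO and 4 control, read in paired 151 bp cycles per the labels. Raw read counts by gene are what the authors deposited (100% of values are whole numbers). The submitters' processing notes name STAR 2.6.1b, RSEM 1.3.1, FastQC and GRCm38 without saying what each was used for, so counts may be rounded RSEM estimates. No source used here gives the annotation or the strand setting. Antisense genes overlap exons of Zfp36, Zfp36l1 and Zfp36l2, and their reads cannot be told apart from those of the genes. Of 55487 identifiers, 55141 matched GENCODE M21. All pairs of libraries differed beyond sampling noise (lowest chi-square per gene 21.82 over 21 pairs), and whether each came from a separate mouse rests on animal tags. If some shared an animal, p-values would cover the spread of samples alone.

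The quasi-likelihood test of edgeR 4.0.16 (R 4.3.3) was fitted to the counts with genotype as the only term, TMM factors and filterByExpr (counts of at least 10, totals of at least 15), with Benjamini-Hochberg adjusted p under 0.05 over all 16203 genes tested. Fold changes are Traf6 KO over control. List means and r used log2(CPM + 1), and exact tests scipy 1.17.1. Alternatives were other scalings, DESeq2 1.42.0, limma 3.58.1 voom, other filters, the tag series, the acinar level, the replicate number and leaving out each library; plain library totals, totals without acinar genes, the ductal sum without Clu and the motif classes with only 1 heptamer were chosen after seeing the data. The members and lists were chosen with earlier results of these data known. Named genes are the members, Traf6, up to 4 genes a list with the smallest unadjusted p and a mean CPM of at least 1, the 8 genes most like Zfp36l1 and the 3 most like each other member. Genes outside this rule, such as Fos, Dusp1, Mapkapk2 and the promoter matches, were chosen after their values were seen.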

Additional observations from a re-analysis of the deposited data

Results flagged for a closer look

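Among 26 checks for a library that stands apart in the 4 controls, where chance flags about 1 in 20 groups, 2 were past the limit. The mean log2(CPM + 1) of macrophage and myeloid markers was 4.2 in the library labelled control 4, the highest of the controls, and acinar marker genes took 20.4% of counts in control 1. No member was flagged.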

How the results depend on the processing

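Zfp36l1 stayed above 0 and Rc3h2 below 0 under all 21 alternatives, and the other 4 members changed sign under at least 1. Zfp36l1 chose the set by being higher in each Traf6 KO library. Fits that leave out libraries could therefore hardly change its sign, and nothing is read from that sign. No gene was called by edgeR; DESeq2 called 744, limma-voom with quality weights 1046, the acinar covariate 3, the fit without the 3 acinar-rich libraries 67, and leaving out 1 library 0 to 701, with 701 without Traf6 KO 3. The r of same-numbered deviations was 0.597, -0.177 and 0.454. With no differently numbered libraries to set beside them, these values cannot show whether the replicate numbers pair the samples. The replicate block called 6 genes. Log2 fold changes left the spread as follows. On plain library totals they were 1.15 for Zfp36l1, -0.15 for Rc3h1 and -0.69 for Rc3h2, and medians were -0.33 for deadenylation, -0.61 for decapping and exonucleases, -0.38 for other AU-rich element binders, -0.29 for Regnase relatives, -0.39 for kinases and 0.38 for disallowed genes, beside a median of -0.46 over all genes. With quality weights they were -0.94 for Zfp36, 1.23 for Zfp36l1 and -0.03 for Zc3h12a, and medians were -0.17 for decapping (also -0.17 with upper-quartile factors), -0.47 for ZFP36-family targets, -0.44 for Regnase and Roquin targets and -0.71 for immediate-early genes. In Q- and R-tagged libraries they were -1.43 for Zfp36, -0.39 for Zfp36l2 and -0.15 for Zc3h12a, and medians -0.57, -0.69 and -0.92 for these 3 lists. With tag as a term the medians of both target lists were 0.04 and 0.13. Without the 3 acinar-rich libraries, which leaves 1 Traf6 KO library, assumed to vary like the controls, values were 2.29 for Zc3h12a, -0.07 for Rc3h2, 0.26 for deadenylation, 1.47 for ZFP36-family targets, 2.24 for Regnase and Roquin targets and 0.46 for disallowed genes, which were at 0.50 with the acinar covariate. The cause of these shifts was not tested.

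Leaving out each library gave -1.15 to 1.60 for Zfp36, 1.40 to 1.80 for Zfp36l1, -0.39 to 0.57 for Zfp36l2, -0.28 to 1.73 for Zc3h12a, 0.03 to 0.41 for Rc3h1 and -0.42 to -0.16 for Rc3h2. Medians ran from -0.06 to 0.15 for deadenylation, -0.17 to -0.09 for decapping, -0.06 to 0.12 for AU-rich element binders, -0.02 to 0.28 for Regnase relatives, 0.06 to 0.14 for kinases, -0.62 to 1.08 for ZFP36-family targets, -0.78 to 1.34 for Regnase and Roquin targets, -0.86 to 1.5 for immediate-early genes and 0.60 to 1.24 for disallowed genes. Level differences on the log2 scale ran from -0.13 to 0.33 for Zfp36l2 over Zfp36, 1.21 to 1.84 for Zfp36 over Zfp36l1, 0.79 to 1.18 for Zfp36l1 over Rc3h1, 0.37 to 0.52 for Rc3h1 over Rc3h2 and 1.08 to 1.60 for Rc3h2 over Zc3h12a; with 1 library fewer Rc3h1 over Rc3h2 no longer passed, since the smallest p is higher by construction. In controls alone Zfp36l1 over Rc3h1 was 0.44, and Rc3h1 over Rc3h2 was 0.27 (exact adjusted p = 0.156). With the longest transcript as length Zfp36 over Zfp36l1 was 1.85, Zfp36l2 over Zfp36 -0.23, Rc3h1 over Rc3h2 -0.62 and Rc3h2 over Zc3h12a 2.31 (exact adjusted p = 0.562, 0.0195 and 0.0195 for the last 3). Low counts limit Zc3h12a, with 18 to 284 counts a library.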
